A study of Mus musculus with 8 samples.

Results

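Sipa1l1 encodes a GTPase-activating protein for the small GTPase Rap, and it was examined here together with 8 other genes of Rap signalling on arrays of IL-6-treated mouse macrophages. The 9 members were 4 Rap GTPase-activating proteins of the Sipa1 family (Sipa1l1, Sipa1, Sipa1l2 and Sipa1l3), 2 Rap GTPases (Rap1a and Rap1b) and 3 exchange factors (Rapgef1, Rapgef2 and Rapgef6). All 9 had a probe set annotated to that gene symbol alone, among 19938 genes measured in this way. A gene with several such probe sets was represented by its brightest. The group was picked because Sipa1l1 was lower in the receptor-deficient macrophages. Its own difference is therefore a description and was not tested. The other 8 members were included for their family or role, though with earlier results of these data known.

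Rap proteins are small GTPases that switch on when an exchange factor loads them with GTP and switch off when a GTPase-activating protein stimulates GTP hydrolysis. Active Rap recruits effectors that bring talin to integrins, which controls adhesion, spreading and migration of leukocytes, and it also acts at cell junctions. Sipa1, also called SPA-1, is the founding member of the GTPase-activating family and is known from blood cells. Sipa1l1, also called SPAR or E6TP1, is best known from the postsynaptic side of neurons, where it binds actin and scaffold proteins.

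Macrophages were grown from bone marrow in M-CSF (10 ng/ml) for 10 days, deprived of serum overnight and given recombinant IL-6 at 50 ng/ml during 4 h. Ctrl cells came from IL6ralpha flox/flox mice and IL6raKO cells from IL6ralpha flox/flox LysMCre tg/wt mice, in which Cre is driven by the lysozyme M locus of myeloid cells, so both groups carried the floxed alleles and only IL6raKO carried Cre. Each genotype had 4 arrays, titled as biological replicates, and IL-6 had been added to all 8 cultures. The question is how expression after IL-6 exposure differs with the receptor alpha chain deleted. An effect of Cre itself cannot be told apart from loss of the receptor, and without untreated cells no value here is a response to IL-6. The labels do not say that each replicate was a separate animal, so p-values measure the spread between these cultures. In a bulk culture, fewer cells of a type and less RNA per cell cannot be told apart.

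The targeted gene Il6ra was between 8.40 and 8.45 on the log2 scale in Ctrl and between 7.75 and 8.10 in IL6raKO, a difference of -0.50 (SE 0.07, limma adjusted p = 0.0607 over all genes), and its probe set was not resolved into deleted and kept exons here. The 8 array medians lay between 6.31 and 6.35, and arrays carry no read depth, so their number limits the precision. All 11 measured macrophage markers lay above the 75th percentile of mean expression. Ctrl replicate 4 stood apart from the other arrays, at 21.5 on principal component 1, which held 23.6% of the variance, against -6.6 to 4.8. It also had the highest mean of 10 mast cell and basophil markers, 6.54, against 5.98 to 6.25 in the other Ctrl arrays and 5.77 to 6.30 in IL6raKO. Values without Ctrl replicate 4 are given for Sipa1l1 and for the other genes and marker lists whose values leaving it out moved most.

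The start regions of Sipa1l1 are shown because the group was picked for this member, and because RefSeq places its annotated starts in very unlike sequence. Both lie on the plus strand of chromosome 12 (GRCm38.p6), 141333 bases apart, and the 250 bases before each start are printed 5′ to 3′ with every CG pair in capitals.
Sipa1l1 upstream start, chr12:82169766-82170015: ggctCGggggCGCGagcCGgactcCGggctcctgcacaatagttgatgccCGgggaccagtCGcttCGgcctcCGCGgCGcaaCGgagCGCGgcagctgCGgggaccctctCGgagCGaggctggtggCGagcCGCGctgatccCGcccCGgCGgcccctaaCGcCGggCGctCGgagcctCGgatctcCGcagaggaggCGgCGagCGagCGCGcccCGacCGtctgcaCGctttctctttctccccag
Sipa1l1 downstream start, chr12:82311099-82311348: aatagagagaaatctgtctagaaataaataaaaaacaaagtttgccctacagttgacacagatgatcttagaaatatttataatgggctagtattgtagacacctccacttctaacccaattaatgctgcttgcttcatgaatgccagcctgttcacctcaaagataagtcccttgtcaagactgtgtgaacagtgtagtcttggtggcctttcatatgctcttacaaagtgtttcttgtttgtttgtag
The upstream start is preceded by 37 CG pairs and 74.4% G or C, and the downstream start by 0 CG pairs and 37.2% G or C. The median over 32851 windows of RefSeq promoters was 6 CG pairs, and 97.8% of windows held fewer than the upstream one. The array gives 1 value for Sipa1l1 and does not show which start was used. Promoter windows of 300 bases (250 before and 50 after a start) were found for 8 of the 9 members, all but Rap1a, 11 windows in all. The windows of Rapgef2 overlap, so the 11 are not all separate sequences. None of the 11 held the STAT motif TTCNNNGAA, a palindrome that 8.30% of all windows held. The AP-1-like pattern TGANTCA, with any base at its centre, was searched on both strands and held by 7.81% of all windows. It was found once, as TGAATCA, before a start of Sipa1l2. The palindromic CRE motif TGACGTCA, held by 1.79%, was found once, before the start of Rap1b. These are matches of letters in short windows and show nothing about binding.

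Sipa1l1 was lower in every IL6raKO culture than in any Ctrl culture. Its log2 expression was 7.72, 7.84, 7.86 and 7.91 in Ctrl replicates 1 to 4 and 7.45, 7.30, 7.41 and 7.28 in IL6raKO replicates 1 to 4. The groups did not overlap: the lowest Ctrl value lay 0.27 above the highest IL6raKO value, a gap wider than the range within Ctrl (0.19) or within IL6raKO (0.17). Ctrl averaged 7.83 ± 0.08 (SD, n = 4). IL6raKO averaged 7.36 ± 0.08 (SD, n = 4). The difference of -0.47 (SE 0.07) puts IL6raKO at 72.1% of the Ctrl level. Of 19938 genes, 9 had a more negative difference. All 4 IL6raKO arrays were below all 4 Ctrl arrays for 2.37% of genes, and 0.0301% of genes were lower at a limma adjusted p under 0.05, so groups without overlap were not rare on these arrays. Sipa1l1 was moderately expressed, at percentile 70.7 of mean expression. Its residual SD of 0.08 was below the median of 0.11 over all genes.

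Without Ctrl replicate 4, which had the highest Sipa1l1 value, the difference was -0.45, and leaving out each of the 8 arrays in turn gave -0.51 to -0.45. The mast cell and basophil marker list was lower in IL6raKO for 10 of its 10 genes (median difference -0.15, 0 of 10 at an unadjusted p under 0.05), but its array means overlapped between the genotypes. The median of that list was -0.06 without Ctrl replicate 4 and -0.07 without IL6raKO replicate 1. In the other direction it was -0.205 without Ctrl replicate 1 and -0.219 without IL6raKO replicate 4. Over Ctrl replicates 1 to 4 the mean of these markers was 5.98, 6.19, 6.25 and 6.54, rising in the same order as Sipa1l1 (7.72, 7.84, 7.86 and 7.91). Over IL6raKO replicates 1 to 4 the order was the opposite, with the marker mean at 5.77, 6.11, 6.09 and 6.30 and Sipa1l1 at 7.45, 7.30, 7.41 and 7.28. Of 11 neutrophil markers 8 were lower (median difference -0.11, array means 6.17 to 6.41 in Ctrl and 6.05 to 6.28 in IL6raKO), and all 7 measured B cell markers were lower (-0.11, 5.47 to 5.67 and 5.38 to 5.48). An unadjusted p under 0.05 in limma was reached by 2 of 11 and 0 of 7 (7.28% of all genes). Most were dim, with 7 of 11 and 7 of 7 below the median level of all genes. The T and NK cell, dendritic cell and stromal lists also had negative medians (-0.07, -0.04 and -0.04). The median was -0.01 over all genes and 0.01 over genes above the median level. These lists were dim, with medians at percentiles 26.6, 31.8 and 39.5 of mean expression. An unadjusted p under 0.05 in limma was reached by 3 of 7, 1 of 7 and 0 of 8 of their genes. Without Ctrl replicate 4 the neutrophil median was -0.08 with 6 of 11 lower and the B cell median -0.07. The neutrophil median was -0.04 with 6 of 11 lower without IL6raKO replicate 1, and -0.16 with 7 of 11 lower without IL6raKO replicate 4. The B cell median was -0.18 without Ctrl replicate 2 and -0.18 without IL6raKO replicate 2. The part of these cell types in the result was not tested.

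**Figure D1:**
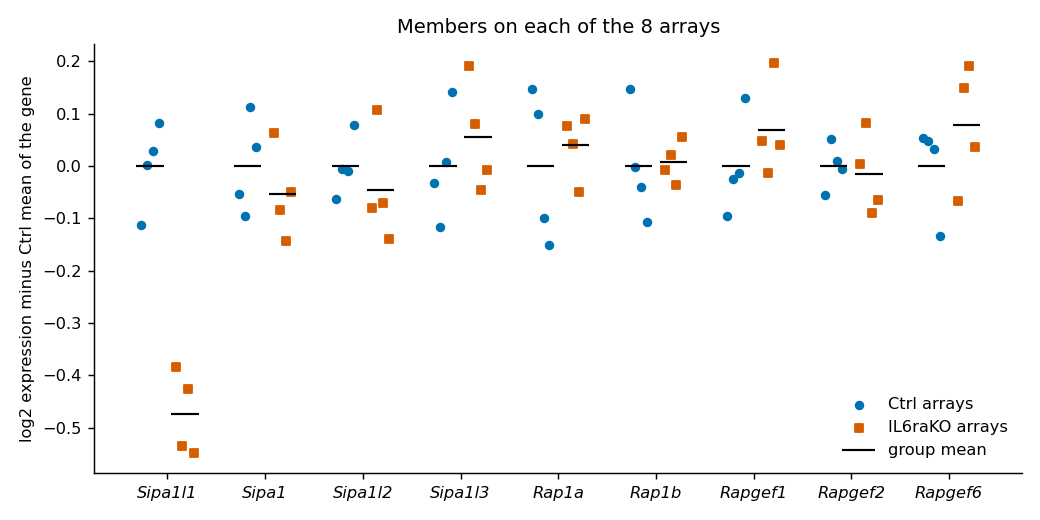
Log2 expression of the 9 members on each array, minus the Ctrl mean of the gene; circles are the 4 Ctrl arrays, squares the 4 IL6raKO arrays and black bars the group means. The Sipa1l1 squares lie 0.27 or more below its circles, while the groups overlap for the other 8 genes.

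Sipa1l1 was left untested, and none of the other 3 members of the Sipa1 family passed the test. For each of these 3 the genotypes overlapped. Sipa1, which inactivates Rap in blood cells, was at 8.15, 8.11, 8.32 and 8.24 in Ctrl replicates 1 to 4 and at 8.27, 8.12, 8.06 and 8.16 in IL6raKO replicates 1 to 4. The highest value belonged to a Ctrl array and the next highest to an IL6raKO array, and the groups overlapped over most of their range. The Sipa1 difference was -0.05 (SE 0.07), its 95% confidence interval ran from -0.21 to 0.10, and its limma adjusted p, taken here and below over all genes, was 0.894.

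Sipa1l2, a paralog also called SPAR2, was between 7.28 and 7.42 in Ctrl and between 7.20 and 7.45 in IL6raKO. Both its highest and its lowest value came from IL6raKO, replicates 2 and 4. Its difference was -0.05 (95% confidence interval -0.20 to 0.10, limma adjusted p = 0.908), and -0.020 without Ctrl replicate 4. Sipa1l3, also called SPAR3, was between 7.61 and 7.87 in Ctrl and between 7.69 and 7.92 in IL6raKO. It lay slightly on the other side, at 0.05 (95% confidence interval -0.11 to 0.22, limma adjusted p = 0.899), and at 0.10 without Ctrl replicate 4. The 3 paralogs thus had intervals that lay well above the -0.47 of Sipa1l1, although the difference between the genes was not tested, because Sipa1l1 was chosen by this contrast.

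The Rap GTPases themselves did not pass the test, and their values in the genotypes overlapped. Rap1a was at 11.12, 11.07, 10.87 and 10.82 in Ctrl replicates 1 to 4 and at 11.05, 11.01, 10.92 and 11.06 in IL6raKO replicates 1 to 4. All 4 IL6raKO values fell inside the Ctrl range, whose ends were Ctrl replicates 1 and 4. The Rap1a difference was 0.04 (SE 0.08, 95% confidence interval -0.13 to 0.21, limma adjusted p = 0.936), and it was -0.0097 without Ctrl replicate 4.

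Rap1b, the close homolog that is abundant in blood cells, was at 11.99, 11.84, 11.81 and 11.74 in Ctrl replicates 1 to 4 and at 11.84, 11.87, 11.81 and 11.90 in IL6raKO replicates 1 to 4. Here too every IL6raKO value fell inside the Ctrl range, with Ctrl replicate 1 highest and Ctrl replicate 4 lowest. Its difference of 0.01 (SE 0.07, 95% confidence interval -0.14 to 0.16, limma adjusted p = 0.987) had no stable direction, being -0.028 without Ctrl replicate 4 and -0.020 with each array centred on its 75th percentile. Both genes were bright, at percentiles 97.9 and 99.4 of mean expression. A further probe set that is annotated to Rap1a and another gene together was not used.

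The 3 exchange factors, which switch Rap on, did not pass the test either. Rapgef1 is brought to the membrane by the Crk adaptors and was at 6.999, 7.07, 7.08 and 7.23 in Ctrl replicates 1 to 4 and at 7.14, 7.08, 7.29 and 7.14 in IL6raKO replicates 1 to 4. The groups overlapped, with the lowest value in Ctrl replicate 1 and the highest in IL6raKO replicate 3. Its difference was 0.07 (95% confidence interval -0.09 to 0.22, limma adjusted p = 0.857), and 0.11 without Ctrl replicate 4. Rapgef1 was the only member with a second probe set of its own, which was dimmer (mean 6.98 against 7.13) and differed by -0.02, so the direction depended on the probe set.

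Rapgef2, also called PDZ-GEF1, was between 8.50 and 8.61 in Ctrl and between 8.47 and 8.64 in IL6raKO. Its difference was -0.02 (95% confidence interval -0.15 to 0.12, adjusted p = 0.971 in limma). Rapgef6, its paralog PDZ-GEF2, was at 8.42, 8.42, 8.40 and 8.24 in Ctrl replicates 1 to 4 and at 8.30, 8.52, 8.56 and 8.41 in IL6raKO replicates 1 to 4. Ctrl replicate 4 was the lowest of the 8 arrays and lay apart from the other Ctrl arrays, and the groups overlapped. The Rapgef6 difference was 0.08 (95% confidence interval -0.09 to 0.24, limma adjusted p = 0.843), the largest in size among these 8 members, and 0.03 without Ctrl replicate 4.

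Over the 8 members other than Sipa1l1, limma called 0 at an adjusted p under 0.05 over all genes, and 0 at an unadjusted p under 0.05. The same thresholds were passed by 0.0301% and 7.28% of all 19938 genes. Of the 8, 3 were lower and 5 higher, with a median difference of 0.02 beside -0.01 over all genes, and 0 of 8 had groups without overlap (4.44% of all genes). Their 95% confidence intervals lay within -0.21 to 0.24 on the log2 scale, or 86.6% to 118% of the Ctrl level. A difference as large as that of Sipa1l1 thus lay outside the interval of each of these genes. Sipa1l1 was picked for its difference, so this does not test whether it stands apart from them. Differences inside an interval were not resolved with 4 arrays per group.

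**Figure D2:**
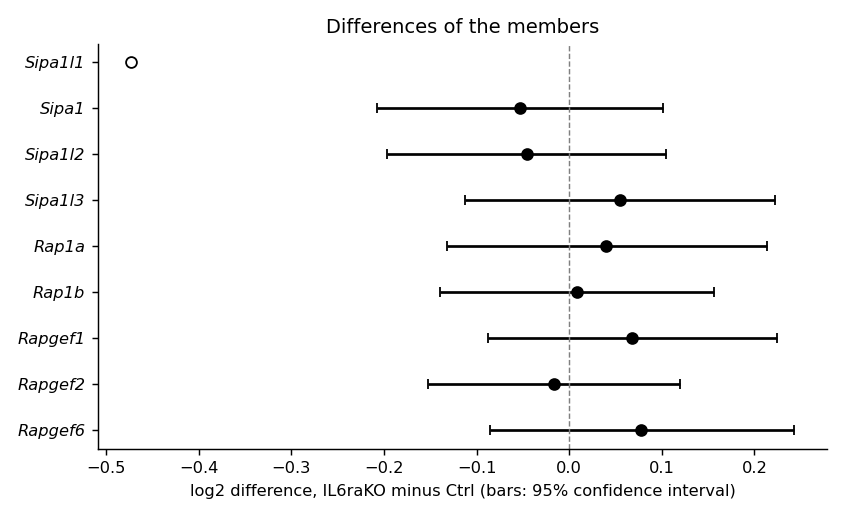
Log2 difference (IL6raKO minus Ctrl) of each member, with the 95% confidence interval from limma for the 8 genes that were tested; Sipa1l1, chosen by this contrast, is an open circle with no interval. Each of the 8 intervals includes 0 and lies to the right of the -0.47 of Sipa1l1.

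A wider list of 100 genes of Rap signalling in 7 groups, chosen with earlier results of these data known, had 90 measured genes. Leaving aside Sipa1l1, which was not tested, 0 of 89 passed over all genes in limma (0.0301% of all genes did). At an unadjusted p under 0.05 there were 5, or 5.62%, beside 7.28% of all genes. Of the 5, 3 were lower (4.54% of all genes were) and 2 higher (2.74% of all genes). Groups did not overlap for 1 lower gene (2.37% of all genes) and 2 higher genes (2.07% of all genes). The median difference of the 89 was 0.01.

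Among the Rap GTPases and the Rap-binding chaperone Rap1gds1, 0 of 6 passed and the differences lay between 0.01 and 0.08 (median 0.03), while with each array centred on its 75th percentile 3 were lower and 3 higher. Rap2b, of the second Rap subfamily, differed by 0.08 (95% confidence interval -0.06 to 0.21) and Rap2a by 0.04 (95% confidence interval -0.09 to 0.17). Of 14 measured exchange factors 0 passed over all genes, 7 were lower and 7 higher, and the median was 0.00. Rasgef1b, an exchange factor that acts on Rap2, was at 9.37, 9.44, 9.47 and 9.35 in Ctrl replicates 1 to 4 and at 9.70, 9.55, 9.56 and 9.71 in IL6raKO replicates 1 to 4. Each IL6raKO value lay above each Ctrl value, as for 2.07% of all genes, and the difference of 0.22 (SE 0.07) had a limma adjusted p of 0.566. Rasgrp3, a diacylglycerol-responsive exchange factor for Ras and Rap, differed by 0.26 (SE 0.12, limma adjusted p = 0.683), with IL6raKO replicate 4 at 8.58 and the other 3 at 8.01 to 8.12. Without that array the difference was 0.135. Rapgef5 differed by -0.11 (limma adjusted p = 0.767), or by -0.06 without Ctrl replicate 4.

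Of 11 measured GTPase-activating proteins, Sipa1l1 included, 6 were lower and 5 higher (median -0.05). Sipa1l1 was not tested, and 0 of the 10 others passed over all genes. The lowest p-values among those 10 were those of Rap1gap, which acts on Rap1 (-0.17, SE 0.08, limma adjusted p = 0.690), Garnl3 (-0.14, SE 0.08, adjusted p = 0.715) and Rasa4, a calcium-responsive Ras GTPase-activating protein (0.11, SE 0.06, adjusted p = 0.717). Rap1gap and Garnl3 lay below the median level of all genes, at percentiles 35.1 and 48.7.

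Of 21 measured Rap effectors and associated proteins 0 passed over all genes, with 12 lower, 9 higher and a median of -0.02. Those with an unadjusted p under 0.05 in limma were all 3 lower. Skap1, an adaptor of integrin activation best known from T cells, was dim, at 5.25 to 5.41 in Ctrl and 4.99 to 5.21 in IL6raKO. It differed by -0.25 (SE 0.07, limma adjusted p = 0.566) without overlap between the groups, as for 2.37% of all genes in this direction. The list of T and NK cell markers had array means of 5.35 to 5.48 in Ctrl and 5.28 to 5.41 in IL6raKO. Of its 7 measured genes, 2 were lower and 1 higher at an unadjusted p under 0.05 in limma, beside 4.54% and 2.74% of all genes. The part of these cells was not tested. Tiam1, a Rac exchange factor, differed by -0.23 (SE 0.10, adjusted p = 0.669) and the kinase Map4k4 by -0.15 (SE 0.07, adjusted p = 0.674). Both were near the threshold (unadjusted p = 0.035 and 0.0432 in limma), and leaving out any of several arrays took them over it. With an array left out the difference ran from -0.29 to -0.15 for Tiam1 and from -0.19 to -0.12 for Map4k4. Tiam1 differed by -0.15 without Ctrl replicate 4 (unadjusted p = 0.107 in limma) and by -0.17 without IL6raKO replicate 1 (unadjusted p = 0.111). Map4k4 differed by -0.12 without Ctrl replicate 3 (unadjusted p = 0.123) and by -0.19 without Ctrl replicate 4 (unadjusted p = 0.0126). The unadjusted p of Skap1 stayed under 0.05 with any 1 array left out.

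Upstream adaptors and kinases had 13 measured genes, of which 0 passed and 0 had an unadjusted p under 0.05 in limma (median -0.02). The lowest p-values were those of the phosphodiesterase Pde4b (0.14), the Cas adaptor Bcar1 (0.16, and 0.23 with an unadjusted p of 0.00966 in limma without Ctrl replicate 4) and the ubiquitin ligase Cbl (0.08). Of 11 integrin genes and the integrin activator Fermt3, 12 in all, 0 passed and 0 had an unadjusted p under 0.05, 6 were lower and 6 higher, and the differences ran from -0.09 for Itga6 to 0.09 for Itgb3 (0.14 without Ctrl replicate 4), with a median of 0.01. These genes were bright, with a median at percentile 97.5 of mean expression.

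Among 13 measured proteins known to bind or modify Sipa1 family members, 0 passed over all genes in the fit of all arrays, and Plk2 stood furthest from 0. Plk2 is a polo-like kinase that phosphorylates the Sipa1l1 protein in neurons and leads to its degradation. It was at 9.89, 9.82, 9.78 and 9.85 in Ctrl replicates 1 to 4 and at 10.18, 10.04, 10.24 and 10.19 in IL6raKO replicates 1 to 4. Every IL6raKO value lay above every Ctrl value, as for 2.07% of all genes, which is the opposite order to Sipa1l1. A link between these genes was not tested. The Plk2 difference was 0.33 (SE 0.06, 95% confidence interval 0.19 to 0.47, limma adjusted p = 0.237), and over 16 alternatives the adjusted p ran from 0.0234, with a trended and robust variance, to 0.647. The array measures RNA, so it holds no value for the phosphorylation or the amount of the Sipa1l1 protein. Plk3, a related kinase, differed by 0.10 (limma adjusted p = 0.763), and the receptor Epha4, a partner of Sipa1l1 in neurons, by 0.14 (adjusted p = 0.777) at a low level, or 0.20 without Ctrl replicate 4.

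**Figure D3:**
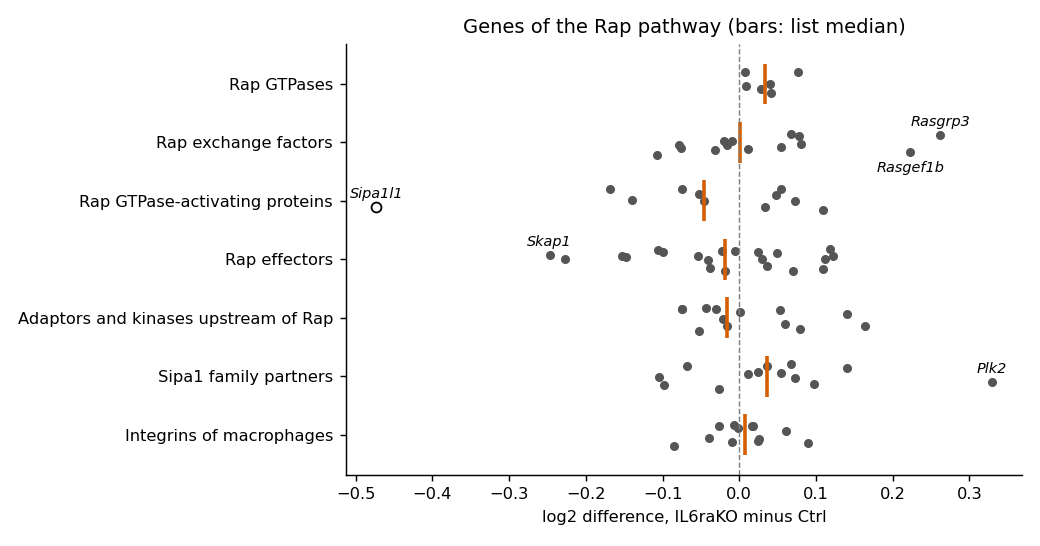
Log2 difference (IL6raKO minus Ctrl) of the 90 measured genes in 7 lists of Rap signalling, 1 point per gene, spread vertically for legibility, with an orange bar at the median of each list. Sipa1l1 (open circle, -0.47) lies furthest to the left and Plk2 (0.33) furthest to the right, and the list medians lie between -0.05 and 0.04.

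Genes whose values ran most like those of Sipa1l1 were sought among 9427 named genes above the median level, with Pearson's r over the 8 arrays as the measure. The 5 highest were Pgap6 (r = 0.96), Il4ra (0.96), Stat3 (0.95), P2ry6 (0.94) and Slc12a7 (0.94). All 5 were lower in IL6raKO, by 0.43, 0.52, 0.57, 0.14 and 0.19 in size, as a measure that includes the difference between genotypes will favour. Stat3 is the transcription factor activated by IL-6, Il4ra a chain of the IL-4 and IL-13 receptors, P2ry6 a receptor for UDP and Slc12a7 a potassium-chloride cotransporter. These values are the highest of many on 8 arrays of shared normalization and are given as a description.

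With each genotype's mean removed, so that the difference between genotypes no longer counts, a different set led. Atg101, an autophagy protein, had r = 0.993, Aldoc, an aldolase, 0.986, Ppm1d, a phosphatase of the p53 response, 0.985, Zfp395 0.980 and Pkm, pyruvate kinase, 0.975 over the same 8 arrays. Their own differences between genotypes ran from -0.09 for Aldoc to 0.03 for Ppm1d. Of the earlier 5, Slc12a7 stayed highest by this measure (r = 0.79, rank 330 of 9427), followed by Il4ra (0.53), Pgap6 (0.51), Stat3 (0.32) and P2ry6 (0.13). Among the other members it ran from -0.87 for Rap1b to 0.71 for Rapgef1, and over all 8 arrays from -0.51 for Rapgef6 to 0.43 for Sipa1.

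**Figure D4:**
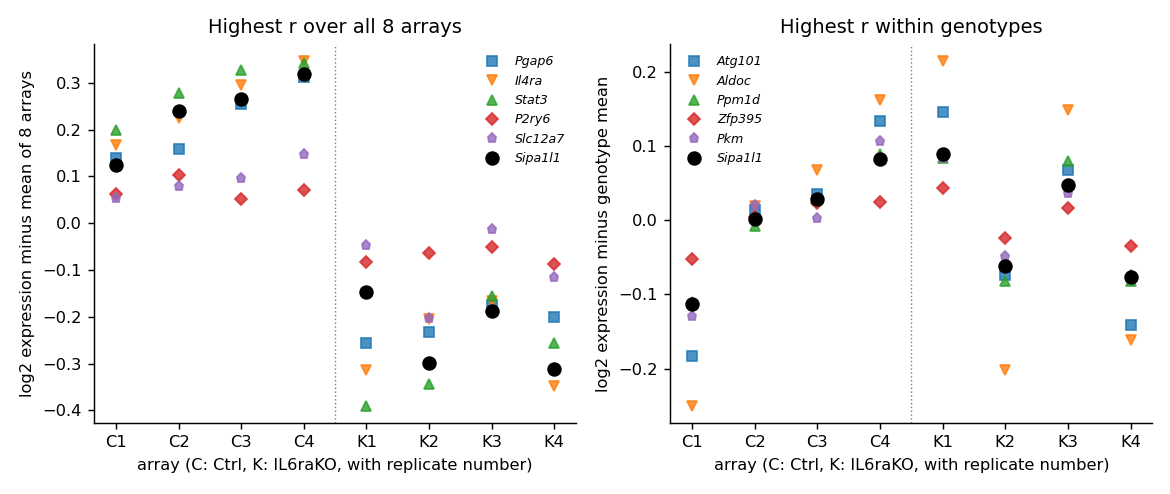
Left, log2 expression minus the mean of all 8 arrays for Sipa1l1 (black circles) and the 5 genes of highest r with it over the 8 arrays; right, log2 expression minus the genotype mean for Sipa1l1 and the 5 genes of highest r within genotypes (C: Ctrl, K: IL6raKO). On the left, every gene is higher in the Ctrl arrays; on the right, with that difference removed, Ctrl replicate 1 is the lowest Ctrl array for each gene.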

How the data were processed

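Total RNA of 8 cultures was labelled as biotinylated cDNA with an Affymetrix whole-transcript assay and hybridised to arrays, per the labels' protocols. Values were deposited as log2 expression of 35556 probe sets, and the submitters' processing notes name RMA and R 2.13.1. The log2 scale was read from the range, 1.96 to 14.2, and the genome build is not given in the sources used here. RMA compresses differences of dim probe sets. Replicates were separate columns, and the smallest SD of a difference between 2 arrays was 0.164.

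Of the probe sets, 21789 had 1 gene symbol in GEO's platform annotation, 1621 several and 12146 none. Their Entrez identifiers were found in RefSeq (GRCm38.p6) for 21698, with 0 symbols changed. The brightest probe set was taken for the 999 symbols with more than 1, giving 19938 genes. IL6raKO was compared with Ctrl in limma 3.58.1 (R 4.3.3, default lmFit and eBayes, no covariate, no filter, two-sided, Benjamini-Hochberg over all genes). The procedure was checked on simulated data. Genes named were all members, Il6ra and, from each pathway list, called genes and the 3 of lowest p, beside the likeness lists. Likeness was taken among genes above the median level, leaving out unnamed models, small RNAs and olfactory receptors. Alternatives were a trended and robust variance, the replicate number as a block, filters on dim genes, 2 further normalizations, array weights, averaged probe sets and each array left out. The members and lists were chosen with earlier results of these data known.

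Same-numbered replicates of the genotypes did not deviate together (correlations over genes of -0.01 to 0.04), so the numbers were not treated as pairs. Lyz2, the locus of the Cre insertion, differed by -0.11 (limma adjusted p = 0.763).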

Additional observations from a re-analysis of the deposited data

Results flagged for a closer look

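Rapgef6 in Ctrl was the 1 of 62 sets of 4 values, each a named gene in a genotype, in which an array lay far from the other 3. Ctrl replicate 4 was at 8.24 and the other 3 Ctrl arrays at 8.40 to 8.42, so that the gap made up 0.889 of the range. Chance gives about 1 such set in 20, or 3.1 here. The same array stood apart on the first principal component.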

How the results depend on the processing

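The Sipa1l1 difference of -0.47 was -0.51 to -0.45 with an array left out and -0.50 to -0.47 otherwise. It moved by less than the replicate SD under all 16 alternatives, but for most of them this was bound to hold. The trended variance, the block, the filters and averaged probe sets cannot change the difference of a gene with 1 probe set. Leaving out 1 of 4 arrays moves a group mean by less than that SD. The count of 8 other members called was 0 in each of the 16 alternatives, with limma adjusted p from 0.745 to 1.0. The count of genes called over all genes, 6 in the fit of all arrays, was 22 with a trended and robust variance, 11 among genes above the median level, 11 among those above the 25th percentile, 3 after quantile normalization applied again and 0 with the replicate block, and ranged from 0 to 1 with an array left out. The replicate block left the Sipa1l1 difference at -0.47, since the numbers are balanced over the genotypes.

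Of 128 member differences under the alternatives, 119 kept their direction and 9 near 0 changed it. The 119 include fits that alter only the test and could not change a difference, such as the trended variance and the block. Rap1b was -6.5e-05 after quantile normalization, -0.020 centred on the 75th percentile, -0.0044 with array weights, and from -0.028 to 0.058 with an array left out. With an array left out, Rap1a ran from -0.0097 to 0.090 and Rapgef2 from -0.050 to 0.0077. Of 314 values of 20 other named genes, 1 was called, Plk2 with a trended and robust variance (0.33, limma adjusted p = 0.0234). The cause of these changes was not tested. The 4 arrays per genotype limit the precision.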
